A study of Mus musculus with 7 samples.

Results

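The 8 genes described here are the Hedgehog ligands Ihh and Dhh, the ligand receptor Ptch1, the ligand-binding antagonist Hhip, the signal transducer Smo and the transcription factors Gli1, Gli2 and Gli3. They were chosen by gene symbol from a table of 55228 genes, and each of the 8 symbols had a row. The samples were primary granulosa cells, the somatic cell layer around the egg cell in a follicle of the ovary, isolated from C57BL/6J mice that received no treatment. Read counts were given for 4 libraries of wild-type (WT) mice and 3 libraries of mice whose label gives an Fhl2 knockout (Fhl2 KO), FHL2 being a LIM-domain protein. Not given in the sources used here were the way the Fhl2 allele was made, the age of the mice, the follicle stage and the number of animals pooled in a library. The series title names follicle growth, fertility and EGF receptor and YAP signalling as its subjects, and the comparison asks how the granulosa cell transcriptome differs between the genotypes.

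Hedgehog ligands are secreted, lipid-modified proteins that bind Patched receptors on neighbouring cells. Without ligand, PTCH1 holds Smoothened (SMO) inactive, and GLI3 and part of GLI2 are cut into repressors. With ligand, SMO moves into the primary cilium, GLI2 and GLI3 stay as activators, and Gli1, Ptch1 and Hhip are transcribed, so that these 3 genes are widely used as readouts of the pathway. In the mouse ovary, granulosa cells are known as the source of IHH and DHH, and the theca and stroma around the follicle as the cells in which Ptch1 and Gli1 respond.

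The promoter sequences of the ligands and of the pair of genes that fell are shown so that their letters can be set beside the values that follow. The stretches are the 250 bases before the start that RefSeq gives for Ihh, the ligand gene that rose, of Dhh, the ligand gene whose change did not pass the test, and of Gli3 and Ptch1, which fell (Ptch1 only before the length correction). They run 5′ to 3′ on the strand of the gene, were taken from RefSeq on build GRCm38.p6, and have matches to the GC box GGGCGG or its reverse complement in capitals. Ihh lies on the minus strand (chr1:74951673-74951922), as do Dhh (chr15:98898541-98898790) and Ptch1 (chr13:63565736-63565985), and Gli3 lies on the plus strand (chr13:15463473-15463722). The starts in GENCODE M21, used for the gene coordinates given with the values, lie farther upstream for Ptch1 and Gli3, so that both stretches fall inside those gene bounds.
Ihh: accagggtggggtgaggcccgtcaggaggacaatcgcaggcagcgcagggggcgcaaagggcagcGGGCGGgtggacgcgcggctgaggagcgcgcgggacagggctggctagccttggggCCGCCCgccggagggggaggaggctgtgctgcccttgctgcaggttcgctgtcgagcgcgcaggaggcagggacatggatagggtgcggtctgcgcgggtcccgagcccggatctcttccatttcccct
Dhh: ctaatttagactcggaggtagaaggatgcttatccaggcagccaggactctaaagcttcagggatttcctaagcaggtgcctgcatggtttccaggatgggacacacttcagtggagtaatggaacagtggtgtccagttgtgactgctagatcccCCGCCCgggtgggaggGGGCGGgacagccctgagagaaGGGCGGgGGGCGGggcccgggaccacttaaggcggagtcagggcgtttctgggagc
Gli3: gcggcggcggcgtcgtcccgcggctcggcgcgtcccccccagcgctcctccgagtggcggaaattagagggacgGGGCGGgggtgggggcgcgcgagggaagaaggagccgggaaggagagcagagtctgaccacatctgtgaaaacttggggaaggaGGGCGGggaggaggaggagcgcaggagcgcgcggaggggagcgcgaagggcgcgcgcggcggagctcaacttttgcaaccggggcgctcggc
Ptch1: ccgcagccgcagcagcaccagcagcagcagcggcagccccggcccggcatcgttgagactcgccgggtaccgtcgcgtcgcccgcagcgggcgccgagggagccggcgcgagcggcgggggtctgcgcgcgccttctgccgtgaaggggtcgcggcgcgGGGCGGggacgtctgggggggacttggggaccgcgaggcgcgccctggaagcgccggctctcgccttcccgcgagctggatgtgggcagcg
A promoter window (250 bases before to 50 after the start) was found for 7 of the 8 genes. The GC box was matched 2 times in the Ihh window, 4 times in the Dhh window, 2 times in the Gli3 and Hhip windows, 1 time in the Ptch1 and Gli2 windows and not in the Smo window, so 6 of 7 windows held it, and 35.7% of all 32851 windows held it. The GLI motif GACCACCCA, searched on both strands, had no match in these 7 windows and was held by 0.253% of all windows. The TEAD motif CATTCC (14.7% of all windows) was matched 1 time, at position -17 from the start of Smo, and the NR5A motif CAAGGTCA (1.56% of all windows) had no match. No match of one motif overlapped a match of another, and these counts describe only the windows searched. The Ihh stretch held 24 CG dinucleotides, the Dhh stretch 9, the Gli3 stretch 34 and the Ptch1 stretch 41.

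Total counts ran from 38855596 to 50514556 per library. Fhl2 itself stood at 101.0 to 114.2 CPM (the count scaled to library size by the TMM method) in WT and at 47.9 to 66.8 CPM in Fhl2 KO, so reads of the gene remained in each KO library. As markers of the labelled cell type, Inha and Foxl2 were detected in each library, but they differed between the groups in opposite directions. Inha averaged 1042 CPM in WT and 1699 CPM in KO, and Foxl2 70.1 and 52.5 CPM. Cyp19a1, the aromatase gene, had 0 counts in the 4 WT libraries and 6 to 17 in the KO libraries. Of the theca cell genes, Cyp17a1 had at most 3 counts and Insl3 at most 2 counts in any library. Others of the same list were present: Aldh1a1 averaged 6411 CPM in WT and 7951 CPM in KO, and Nr2f2 30.7 and 25.3 CPM. Tcf21 averaged 0.928 CPM in WT and 0.430 CPM in KO, and Lhcgr had 0 to 2 counts in WT and 10 to 16 in KO. The libraries also differed in how log2 CPM depended on exon length. With each gene centred on its mean, the slope for each doubling of exon length was 0.0455 to 0.0721 in the WT libraries, 0.000866 in the first KO library, -0.140 in the second and -0.109 in the third. For that reason the changes of the Hedgehog genes and the counts over gene lists are also given after a correction for exon length and GC content (corrected). The slopes of the groups did not overlap, so a technical trend and a difference of genotype cannot be told apart. The correction takes out both. In these bulk samples, fewer cells of a type and less RNA per cell cannot be told apart.

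Smo was by far the most abundant of the 8 transcripts and Hhip the least. Per kilobase of exon, the WT mean was 48.5 ± 1.18 CPM per kb for Smo (SD, n = 4), which was 14.6 times the mean of Ptch1, the next in order. Ptch1 stood at 3.31 ± 0.141 CPM per kb and Dhh at 2.75 ± 0.461, followed by Gli2 at 1.84 ± 0.172, Gli3 at 0.987 ± 0.106, Ihh at 0.541 ± 0.0974, Gli1 at 0.163 ± 0.0496 and Hhip at 0.0137 ± 0.00796 (SD, n = 4 each). No pair of neighbours in this WT order overlapped in its library values. In Fhl2 KO the order was Smo, Dhh, Ptch1, Ihh, Gli2, Gli3, Gli1 and Hhip. There Dhh (2.54 ± 0.296 CPM per kb) and Ptch1 (2.28 ± 0.192) overlapped, as did Ihh (1.32 ± 0.249) and Gli2 (1.11 ± 0.528; SD, n = 3 each). Ihh thus stood below Gli2 and Gli3 in WT and above Gli3 in each KO library.

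**Figure D1:**
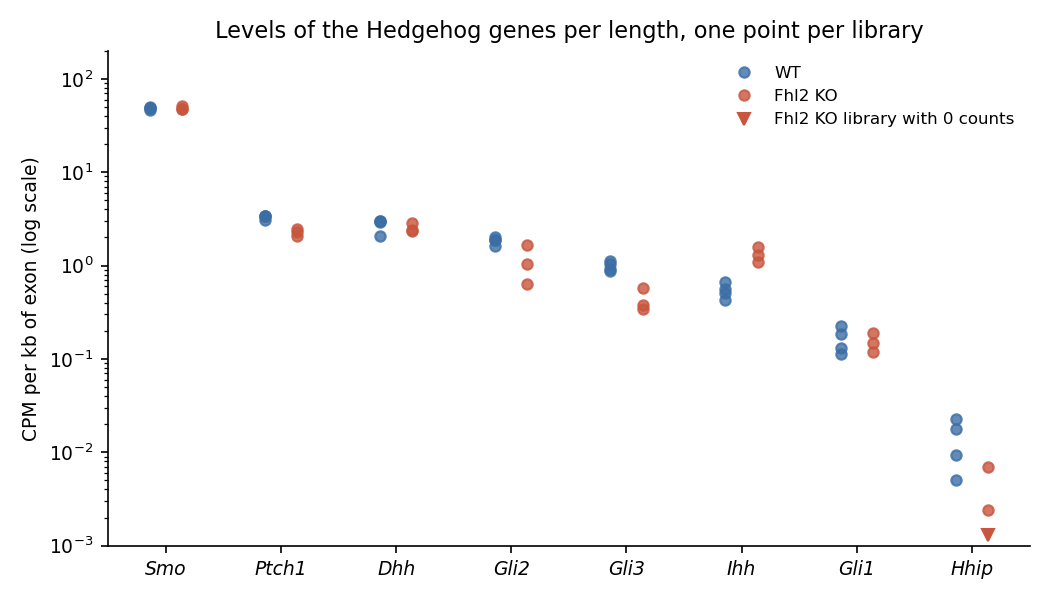
Level of each Hedgehog gene in CPM per kilobase of exon on a log axis, 1 point per library, with WT in blue and Fhl2 KO in red; a triangle marks the KO library with 0 counts of Hhip. Smo lies at 46.9 to 51.3 in the 7 libraries, and the WT and KO points are apart for Ihh, Ptch1 and Gli3.

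Of the 8 genes, 7 passed the filter on low counts and were tested, and Hhip did not. With edgeR, 1 rose (Ihh), 2 fell (Gli3 and Ptch1) and 4 did not pass (Dhh, Smo, Gli1 and Gli2). Over all 15798 genes tested, 29.0% passed adjusted p 0.05 (13.5% higher and 15.6% lower in KO). With 3 calls among 7 genes, no excess over that share is claimed. After the length and GC correction 25.7% of 15573 genes passed, and among the 7 they were Ihh, Gli3 and Gli2 in place of Ptch1. The libraries of both groups did not overlap for Ihh, Gli3 and Ptch1, which was the case for 34.2% of all genes tested (16.4% higher and 17.7% lower in KO).

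Of the ligands, Ihh was higher in Fhl2 KO and Dhh was not past the threshold. Ihh, known for growth plate signalling and expressed by granulosa cells of growing follicles, had 67, 66, 72 and 88 counts in the WT libraries, in order of their number, and 154, 156 and 220 in the KO libraries. Its level was 1.73, 1.31, 1.54 and 2.02 CPM in WT and 3.93, 3.32 and 4.83 CPM in KO. Each KO library lay above each WT library, and the KO value closest to WT was that of library 2. Ihh rose 2.44-fold (log2 fold change 1.29, SE 0.205, edgeR adjusted p = 4.25e-04; corrected 1.17, SE 0.199, adjusted p = 9.91e-04). Over 19 alternative settings the log2 fold change stayed between 1.14 and 1.42 with edgeR, DESeq2 or limma adjusted p of 1.45e-07 to 0.0109. Its coordinates in mm10 are 74945315 to 74951672 on chromosome 1, minus strand.

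Dhh, the ligand known from Sertoli and Schwann cells as well as granulosa cells, had 512, 648, 424 and 577 counts in WT and 497, 481 and 484 in KO. In CPM it stood at 13.2, 12.9, 9.07 and 13.2 in WT libraries 1 to 4 and at 12.7, 10.3 and 10.6 in KO libraries 1 to 3. The groups overlapped, with WT library 3 the lowest of all 7. The log2 fold change was -0.11 (SE 0.141, edgeR adjusted p = 0.580; corrected -0.12, 0.508), and its approximate 95% interval ran from -0.39 to 0.16. Dhh shares 546 exon bases with Rhebl1 on the same strand (123 to 258 counts per library) and 1107 with Gm49442 on the opposite strand (0 to 8 counts), and the strand setting of the counting is not given in the sources used here.

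Taken per length, Dhh was the more abundant ligand transcript in each of the 7 libraries. The share of Ihh in the sum of both ligands was 15.9, 12.8, 19.7 and 18.04% in WT libraries 1 to 4 and 30.9, 31.9 and 39.6% in KO libraries 1 to 3. The groups did not overlap in this share, with means of 16.6 ± 2.97% (SD, n = 4) and 34.1 ± 4.77% (SD, n = 3), which rests on the values of Ihh and Dhh already given. The sum of both ligands itself overlapped between the groups, at 3.29 ± 0.50 CPM per kb in WT and 3.86 ± 0.392 in KO. Shh, the third ligand of the family, had no count in any WT library and 0, 0 and 2 in the KO libraries. Summed over the WT libraries, 3 counts equal 0.0167 CPM, a limit that covers counting error only.

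**Figure D2:**
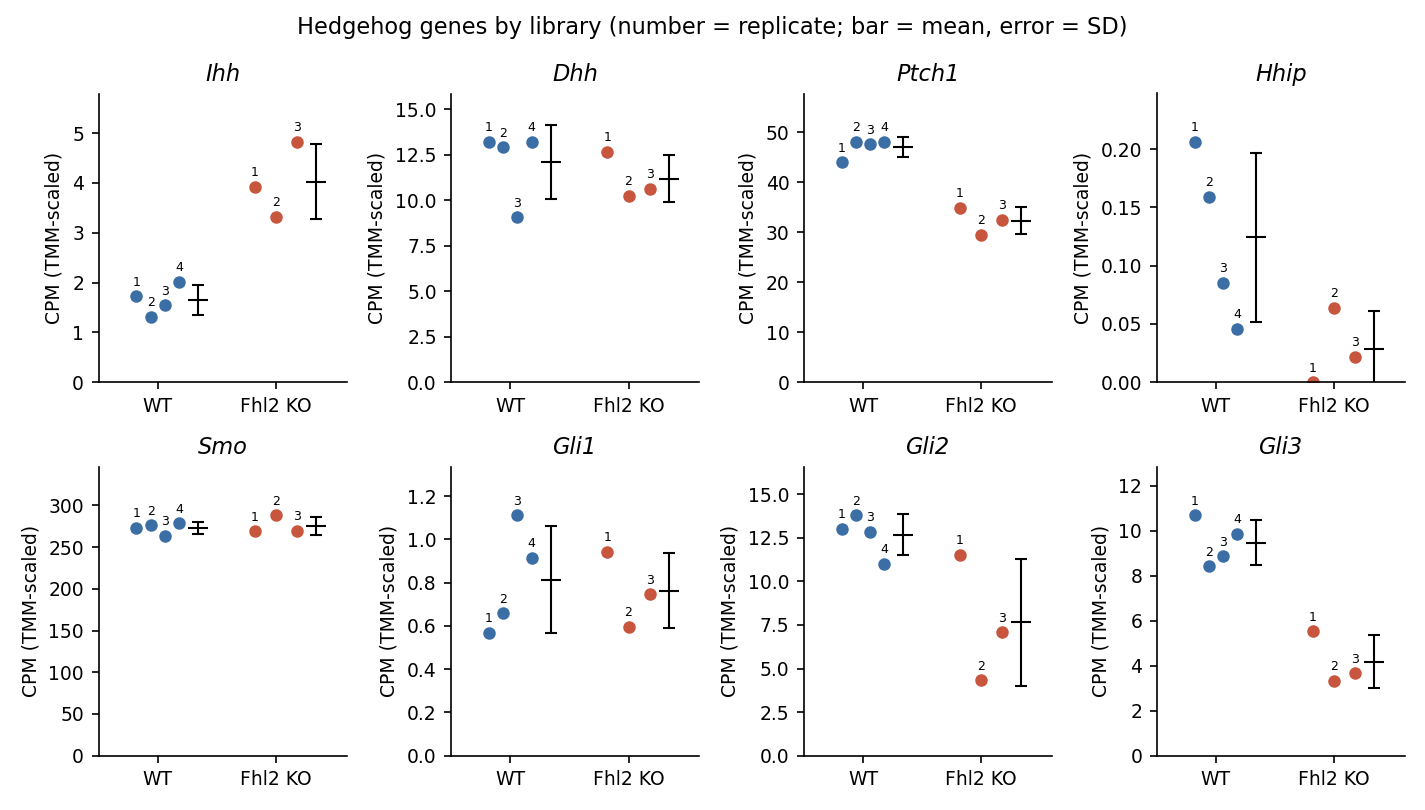
CPM scaled by TMM for each of the 8 genes, 1 point per library with its replicate number, and the mean with SD beside the points of each group; each axis starts at 0. The KO points of Ihh (3.32 to 4.83) lie above those of WT (1.31 to 2.02), those of Ptch1 and Gli3 lie below, and those of Smo and Gli1 overlap with WT.

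Of the receptor side, Ptch1 was lower in Fhl2 KO before the length correction and Smo did not pass the test. Ptch1, the receptor and itself a target of the pathway, had 1705, 2416, 2230 and 2103 counts in the WT libraries and 1370, 1384 and 1480 in the KO libraries. This was 44.0, 48.1, 47.7 and 48.2 CPM in WT and 34.9, 29.5 and 32.5 CPM in KO, with no overlap. The fall of Ptch1 was -0.54 as log2 fold change (SE 0.0945; edgeR adjusted p = 8.96e-04), to 68.7% of the WT mean. Its exons sum to 14.18 kb, the longest of the 8 genes (chromosome 13, 63508328 to 63573598, minus strand). The length trend separated the groups, so its part in the fall of Ptch1 cannot be told apart from that of genotype. After the length and GC correction the change was -0.14 (SE 0.0793, adjusted p = 0.232), and with the length of the longest transcript in that correction it was -0.07 (adjusted p = 0.599). The call of Ptch1 is thus lost once the length trend of the libraries is taken out, and it was kept under the 17 other alternatives (edgeR, DESeq2 or limma adjusted p of 3.47e-06 to 0.0249).

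Smo, the seven-helix protein that passes the signal on, had 10575, 13864, 12319 and 12165 counts in WT and 10560, 13527 and 12284 counts in KO. Its level was 273.0, 276.2, 263.5 and 278.6 CPM in WT libraries 1 to 4 and 269.2, 288.3 and 269.8 CPM in KO libraries 1 to 3. The groups overlapped and the log2 fold change was 0.02 (SE 0.0828, edgeR adjusted p = 0.910; corrected 0.0538, 0.640), with an approximate 95% interval of -0.15 to 0.18. This SE was the smallest of the 7 genes. The ratio of Smo to Ptch1 counts within a library was 6.20, 5.74, 5.52 and 5.78 in WT and 7.71, 9.77 and 8.30 in KO. This ratio needs no scaling between libraries but carries the same length trend as Ptch1.

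Hhip, a membrane protein that binds and sequesters the ligands and is a target of the pathway, was close to the detection limit. Its counts were 8, 8, 4 and 2 in the WT libraries and 0, 3 and 1 in the KO libraries. A floor of 3 counts corresponds to 0.0598 to 0.0775 CPM per library, and the KO libraries lay at 0.000, 0.0639 and 0.0220 CPM. Summed over libraries there were 22 counts in WT and 4 in KO, a ratio of 0.248 with an exact 95% interval of 0.0620 to 0.729 that covers counting error only. Library values of the groups overlapped. Without a filter on low counts the log2 fold change was -1.97 (edgeR adjusted p = 0.363).

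Of the GLI factors, Gli3 was lower in Fhl2 KO, Gli2 lay below the WT range in KO libraries 2 and 3 without passing the test, and Gli1 did not pass the test. Gli3, known mainly as the repressor of the pathway, had 414, 423, 415 and 431 counts in WT and 217, 156 and 167 counts in KO. Its level was 10.7, 8.43, 8.88 and 9.87 CPM in WT libraries 1 to 4 and 5.53, 3.32 and 3.67 CPM in KO libraries 1 to 3, without overlap. The fall of Gli3 was -1.19 as log2 fold change (SE 0.171; edgeR adjusted p = 1.75e-04), to 44.1% of the WT mean, and was lower in 3 of 3 KO libraries. Corrected for length and GC content the change was -0.91 (SE 0.137, adjusted p = 4.43e-04), and over 19 alternatives it ran from -1.41 to -0.77 with adjusted p of at most 0.0159. Its coordinates are 15463235 to 15730026 on chromosome 13, plus strand.

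Gli2, the main activator among the factors, had 504, 693, 601 and 481 counts in WT and 452, 203 and 323 in KO. It stood at 13.0, 13.8, 12.9 and 11.02 CPM in WT libraries 1 to 4 and at 11.5, 4.33 and 7.09 CPM in KO libraries 1 to 3. KO library 1 lay within the WT range, and KO libraries 2 and 3 lay below it. The log2 fold change was -0.74 (SE 0.280), with edgeR adjusted p = 0.0827. The call depended on KO library 1 and on the method. Without that library the change was -1.13 (adjusted p = 6.94e-05), and for KO library 1 alone against WT it was -0.14 (adjusted p = 0.692). With all 7 libraries, Gli2 passed with no filter on low counts (-0.74, edgeR adjusted p = 3.51e-05), with limma voom and quality weights (-0.93, 3.79e-04) and with 1 surrogate variable (-0.41, 0.0432). With the replicate number as a block on 6 libraries it passed as well (-0.89, 7.72e-06), whereas DESeq2 gave -0.72 (adjusted p = 0.0821). After the length and GC correction Gli2 fell by 0.66 (SE 0.211, adjusted p = 0.0397), but with the longest transcript as the length it did not pass (-0.54, adjusted p = 0.0516). KO library 1 was also the KO library closest to WT in the length trend given above, and the part of that trend in the Gli2 values of libraries 2 and 3 beyond the correction was not tested.

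Gli1, the factor whose own transcription follows pathway activity, was scarce. It had 22, 33, 52 and 40 counts in WT and 37, 28 and 34 counts in KO, or 0.568, 0.657, 1.11 and 0.916 CPM against 0.943, 0.597 and 0.747 CPM. The groups overlapped. The log2 fold change was -0.10 (SE 0.354, edgeR adjusted p = 0.860; corrected -0.12, 0.839), with an approximate 95% interval of -0.80 to 0.59. Within a library, the sum of the 3 factors per length was 3.12, 3.02, 3.02 and 2.82 CPM per kb in WT and 2.44, 1.10 and 1.56 in KO. Gli1 made up 3.64 to 7.37% of this sum in WT and 7.73 to 10.9% in KO, without overlap, while its own level overlapped. The closest shares, in WT library 3 and KO library 1, rest on 52 and 37 counts of Gli1. The sum is made up mostly of Gli2 and Gli3 and was not corrected for the length trend. The share of Gli3 overlapped between the groups, at 33.0 ± 3.68% in WT and 26.6 ± 4.41% in KO.

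**Figure D3:**
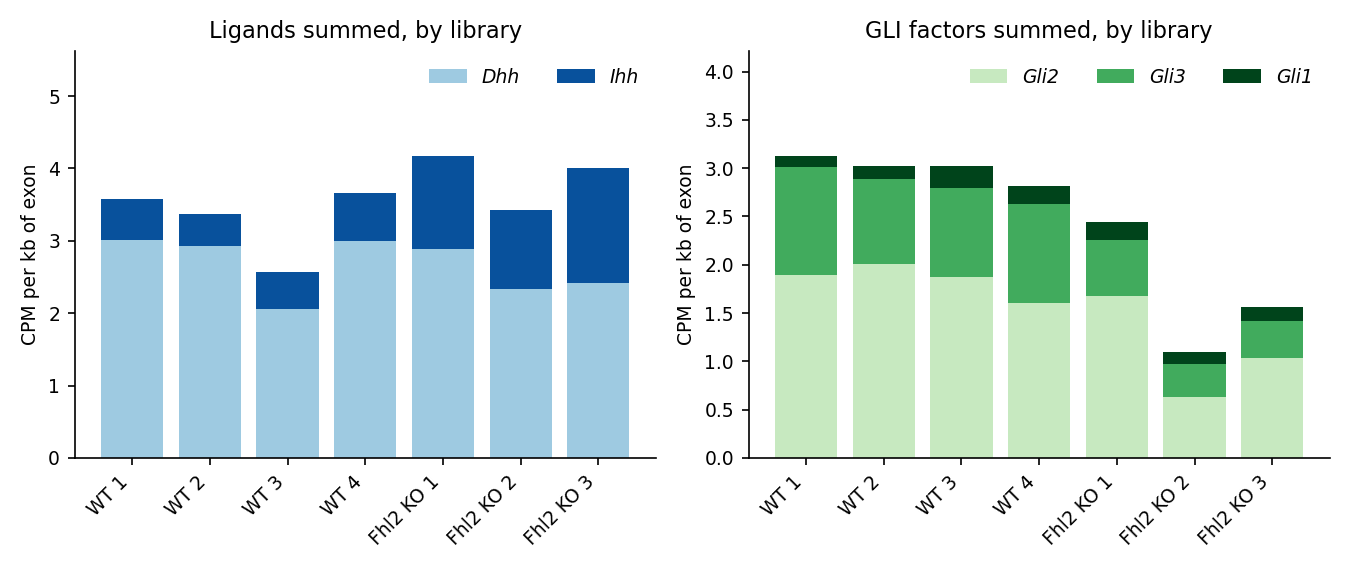
Stacked levels per library in CPM per kilobase of exon, with Dhh and Ihh on the left and Gli2, Gli3 and Gli1 on the right. The Ihh segment is larger in the 3 KO libraries (share of 30.9 to 39.6%) than in the 4 WT libraries (12.8 to 19.7%), and the summed GLI level is lowest in KO libraries 2 and 3, at 1.10 and 1.56.

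**Figure D4:**
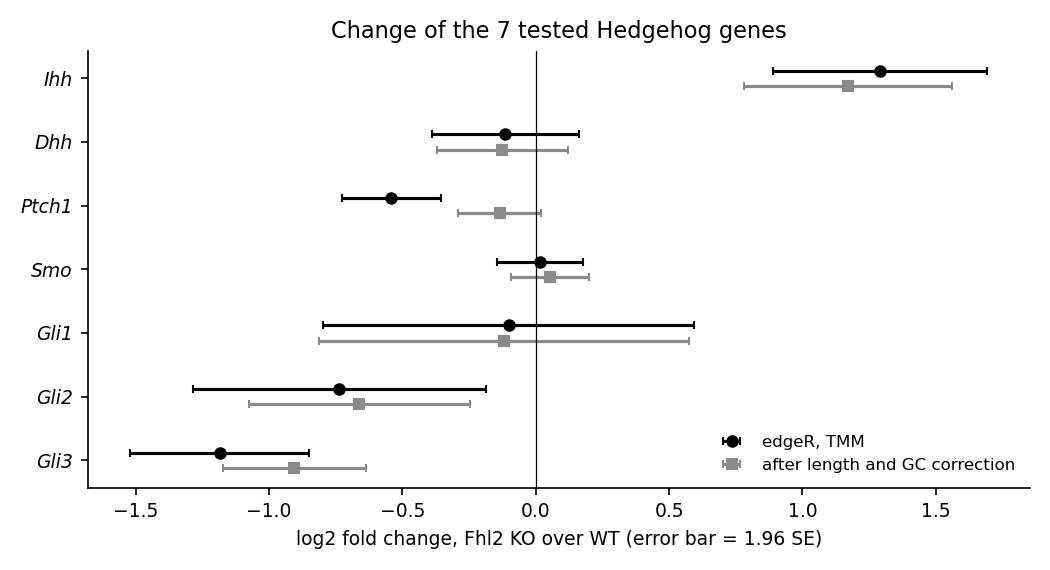
Log2 fold change of Fhl2 KO over WT for the 7 tested genes, from edgeR (black circles) and after the length and GC correction (grey squares), with bars for the approximate 95% interval. Ihh lies to the right of 0 and Gli3 to the left in both fits, and Ptch1 moves from -0.54 to -0.14.

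Besides the 8 genes, 72 other genes of the pathway were examined in 5 lists by role. Of these, 64 were tested, and 4 rose, 19 fell and 41 did not pass with edgeR (35.9% called, against 29.0% of all genes). Their median log2 fold change was -0.15, against -0.000184 for all genes. After the length and GC correction 9 rose and 12 fell (32.8% called, against 25.7% of all genes), and the median was -0.03, against 0.0140 for all genes. Leaving out KO library 3 lowered the 23 calls to 9, leaving out WT library 1 to 15 and leaving out WT library 3 or 4 to 14. With KO library 1 as the lone KO library there were 7.

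Among 5 tested genes of the other receptor group, 3 fell and none rose (median -0.48). This was 60.0% called, against 29.0% of all genes. After the correction 2 fell and none rose (median -0.26). The share called was then 40.0%, against 25.7% of all genes. With 5 genes, no excess over these shares is claimed. Boc, a co-receptor that binds ligand together with PTCH1, averaged 35.1 ± 2.72 CPM in WT and 26.7 ± 3.63 in KO (SD, n = 4 and 3; change -0.40, SE 0.108, edgeR adjusted p = 0.0126; corrected -0.42). Its relative Cdon went from 13.4 ± 0.659 CPM to 9.60 ± 1.94 (-0.48; edgeR adjusted p = 0.0134, corrected 0.0732). Gpc3, a glypican known to compete with PTCH1 for ligand, went from 10.8 ± 1.59 CPM to 6.14 ± 1.46. Its change was -0.81 (edgeR adjusted p = 0.00246) and -0.87 corrected (edgeR adjusted p = 0.00114). The co-receptor Gas1 did not pass (0.35, edgeR adjusted p = 0.148). The call of Boc was lost when WT library 1 (edgeR adjusted p = 0.0523) or KO library 3 (0.0861) was left out, and that of Cdon when KO library 2 (0.0667) or 3 (0.0778) was.

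Of 5 tested genes that attach or release the ligand, 2 fell and none rose, before (median -0.15) and after the correction (-0.13). This was 40.0% called in either fit, against 29.0% of all genes before and 25.7% after the correction. With 5 genes, no excess over these shares is claimed. The 2 that fell are secreted SCUBE proteins, which help to lift the lipid-modified ligand off the producing cell. Scube3 went from 60.0 ± 1.68 CPM to 29.4 ± 7.69 (-1.03 as log2 fold change, SE 0.141, edgeR adjusted p = 2.70e-04; corrected -0.87), and each KO library, at 21.3 to 36.6 CPM, lay below each WT library, at 58.6 to 62.4 CPM. Scube2 went from 1.75 ± 0.385 CPM to 0.562 ± 0.260 (-1.65, corrected -1.64). Their relative Scube1 did not pass, from 23.3 ± 2.16 CPM to 25.1 ± 7.51. Disp1, the transporter that exports the ligand, did not pass either (-0.15, edgeR adjusted p = 0.332).

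Of 19 tested regulators between SMO and the GLI factors, 5 fell, 1 rose and 13 did not pass (median -0.06). This was 31.6% called, against 29.0% of all genes. The balance turned after the correction, with 3 lower and 4 higher (median -0.02, 36.8% called). It turned over all genes too, from 13.5% higher and 15.6% lower to 13.5% higher and 12.1% lower (25.7% called). The higher ones then included Ulk3, Btrc (0.54, edgeR adjusted p = 7.35e-04) and Iqce (0.21), and the lower ones were Efcab7, Spop and Cul3 (-0.20), of which Btrc, Iqce and Cul3 were picked out once their values were known. Efcab7, which anchors the EVC complex at the base of the cilium, had the smallest p of this list and went from 4.93 ± 0.681 CPM to 1.86 ± 0.302 (-1.41 as log2 fold change, SE 0.187, edgeR adjusted p = 7.86e-05; corrected -1.53). The kinase Gsk3b fell by 0.42 (corrected -0.11, edgeR adjusted p = 0.217), the kinase Dyrk2 by 0.34 (corrected -0.16, 0.201) and the ciliary receptor Gpr161 by 0.45 (corrected -0.28, 0.0655), so these 3 calls were lost under the correction. The calls of Dyrk2 and Gpr161 were also lost when single libraries were left out, with edgeR adjusted p of 0.0587 and 0.0554 for WT library 1, 0.0826 and 0.0818 for WT library 3, 0.0734 and 0.0980 for KO library 2, 0.0746 and 0.136 for KO library 3, and for Dyrk2 0.0545 for WT library 4. The gene of the list that rose was the kinase Ulk3 (0.35, edgeR adjusted p = 0.0335, corrected 0.32), and the other one that fell was Spop (-0.31, corrected -0.33), both picked out once their values were known. Csnk1a1, a kinase of GLI factors and the gene of highest CPM in the list, did not pass (-0.11, edgeR adjusted p = 0.408). Corrected it was 0.22, and 0.0203 with the longest transcript as the length. Its summed exons were 10502 bases and its longest transcript 4083. For Btrc these lengths were 16908 and 4720 bases, and for Iqce 12037 and 6924. The calls of Btrc and Iqce with the longest transcript are not given here.

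Of 25 tested genes of cilium assembly and transport, 4 fell, 2 rose and 19 did not pass (median -0.09). This was 24.0% called, against 29.0% of all genes. Here, as over all genes, the balance turned after the correction, with 2 lower and 5 higher (median 0.07). The share called was then 28.0%, against 25.7% of all genes. Those higher were then Ift52, Ift122 (0.32), Tulp3 (0.32), Wdr19 (0.27) and Rpgrip1l (0.29), and those lower Cc2d2a and Kif3b. For Ift122, Tulp3, Wdr19 and Rpgrip1l the summed exons used in the correction were 10319, 9342, 11278 and 14688 bases. Their longest transcripts were 4444, 3623, 6279 and 7009 bases. With the longest transcript as the length, 15 of the other pathway genes passed, against 21 with summed exons. The calls of these 4 genes under that length are not given here. Cc2d2a, a protein of the ciliary transition zone, fell by 0.45 (SE 0.106, edgeR adjusted p = 0.00583; corrected -0.25), and its call was lost when KO library 3 was left out (0.0526). The dynein-2 heavy chain Dync2h1 fell by 0.66 (corrected -0.25, edgeR adjusted p = 0.181) and the transport subunit Ttc21b by 0.36 (corrected -0.12, 0.337), whereas the dynein-2 light intermediate chain Dync2li1 rose by 0.30 on the log2 scale (corrected 0.19, 0.0564). These 3 calls were not kept under the correction, and each was also lost when at least 1 single library was left out. Leaving out WT library 3 gave edgeR adjusted p of 0.0685 for Dync2h1 and 0.0641 for Ttc21b. Leaving out KO library 3 gave 0.105 for Dync2h1, 0.110 for Ttc21b and 0.0860 for Dync2li1. WT library 4 gave 0.0515 for Ttc21b and 0.0515 for Dync2li1, WT library 1 gave 0.0626 for Dync2li1, and KO library 2 gave 0.0910 for Ttc21b. The remaining calls of the list were Ift52 (0.29, corrected 0.24) and Kif3b (-0.47, corrected -0.35). Both, and the 4 genes that passed only after the correction, were picked out once their values were known. Arl3, the gene of highest CPM in the list, did not pass (0.09, edgeR adjusted p = 0.472).

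Of 10 tested genes described as Hedgehog-responsive in other tissues, 5 fell, 1 rose and 4 did not pass (median -0.51). This was 60.0% called, against 29.0% of all genes. After the correction 3 fell, namely Bcl2, Bmp4 and Snai1, and none rose (median -0.34). The share called was then 30.0%, against 25.7% of all genes. With 10 genes, no excess over these shares is claimed. The apoptosis inhibitor Bcl2 went from 6.27 ± 0.474 CPM to 3.54 ± 0.434 (-0.82 as log2 fold change, SE 0.152, edgeR adjusted p = 0.00134; corrected -0.52), and the growth factor Bmp4 from 7.20 ± 1.13 CPM to 4.88 ± 0.181 (-0.56, corrected -0.70). The cell cycle genes Ccnd2 (-0.45, corrected -0.16, adjusted p = 0.0779) and Cdk6 (-0.45, corrected -0.05, 0.690) fell as well, and their calls were lost under the correction. Sfrp1 (-0.59; edgeR adjusted p = 0.0478 and 0.0558 corrected) was the other gene that fell and Mycn (0.88; 0.0281 and 0.0567 corrected) the one that rose, and both calls were lost under the correction. Snai1 passed only after it (-1.01, adjusted p = 0.0660; corrected -1.24, 0.0385). These 3 genes were picked out once their values were known. Foxf1, Foxf2, Foxl1, Foxd1 and Prdm1 were not tested, with at most 8 counts in any library.

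**Figure D5:**
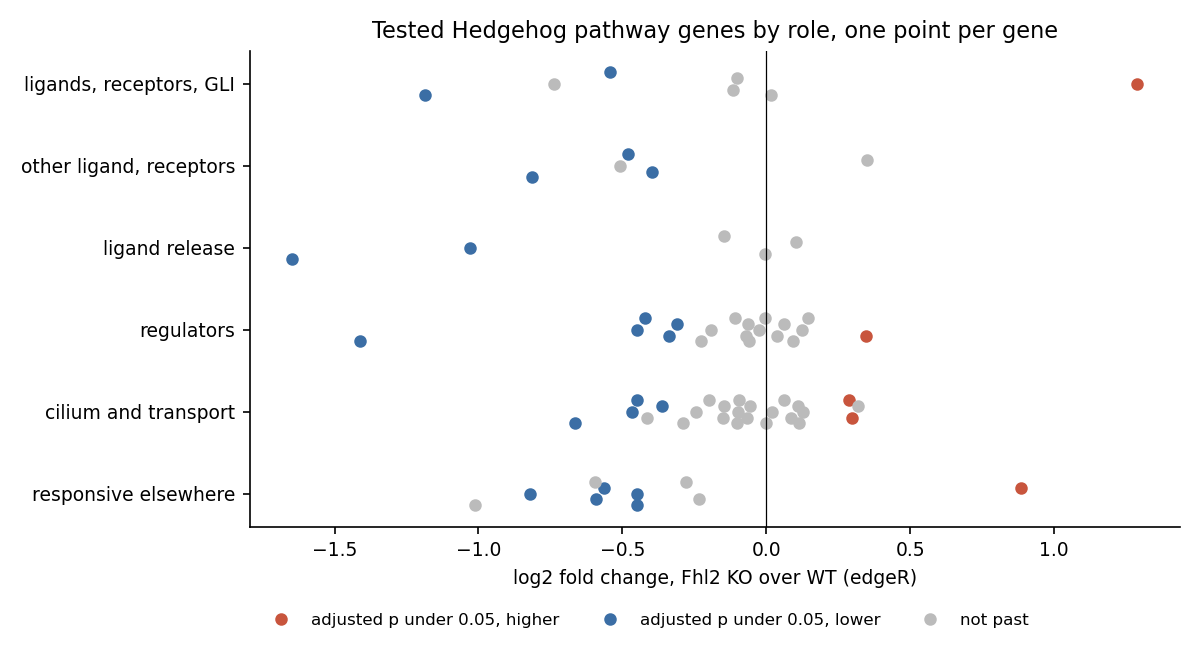
Log2 fold change (Fhl2 KO over WT, edgeR) of the tested genes of 6 role lists, 1 point per gene, with genes past adjusted p 0.05 in red (higher) or blue (lower) and the rest in grey. Ihh, at 1.29, is the point farthest to the right, and the genes farthest to the left are Scube2 (-1.65), Efcab7 (-1.41) and Gli3 (-1.19).

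Markers of other ovarian cell types moved between the groups as well. Of 6 stroma and fibroblast genes 4 fell, their summed level was 363.7 to 421.4 CPM in WT and 117.6 to 163.0 CPM in KO, and Col1a1 went from 72.7 ± 7.87 CPM to 24.5 ± 2.91. Of 9 tested smooth muscle and pericyte genes 5 fell, with sums of 1031 to 1145 CPM in WT and 580.0 to 674.8 CPM in KO, and Rgs5 had 0 counts in all 7 libraries. Of 3 tested theca genes 1 rose (Aldh1a1, from 6411 ± 266 CPM to 7951 ± 243) and 1 fell (Tcf21, from 0.928 ± 0.155 CPM to 0.430 ± 0.202). The theca sums, made up mostly of Aldh1a1, were 6059 to 6672 CPM in WT and 7718 to 8182 CPM in KO. None of 5 endothelial and none of 4 immune genes tested passed edgeR adjusted p 0.05 (sums of 3.91 to 4.83 CPM and 20.8 to 24.0 CPM over all libraries), and Cd3e had 0 counts in all 7. Of 7 surface epithelium genes 5 rose, with sums of 109.3 to 125.3 CPM in WT and 138.9 to 181.1 CPM in KO. These sums were made up mostly of Krt8 and Krt18, at 78.4 and 33.7 CPM in WT and 92.8 and 51.9 CPM in KO. Krt18 was among those that rose, and Krt8 did not pass (edgeR adjusted p = 0.0639). Of 7 oocyte genes 2 fell (Bmp15 and Kit), with sums of 7.65 to 13.0 CPM in WT and 7.91 to 14.3 CPM in KO. Of 8 tested granulosa genes 2 rose (Inha and Fshr) and 4 fell (Foxl2, Amh, Inhba and Nr5a2). These counts stand beside the 29.0% called over all genes. After the correction 6 smooth muscle genes fell, 4 surface epithelium genes rose and 1 oocyte gene fell. The call of Kit was lost (-0.21, edgeR adjusted p = 0.319). Of the granulosa genes 1 then rose (Inha) and 4 fell (Foxl2, Amh, Inhba and Hsd17b1). Counts of the stroma, theca, endothelial and immune lists were the same. The part of these cell types in the values of Ptch1, Gli2 and Gli3 was not tested.

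By Pearson correlation of log2 CPM over the 7 libraries, the genes most like Ptch1 among 11660 genes were Rcor1 (r = 0.994), Pcdh17 (0.993), Kcnip3 (0.991), Myo5c (0.988) and Ccdc80 (0.987). Those most like Gli1 were Kcnt1 (r = 0.982), Lrrc39 (0.971), Ccdc69 (0.932), Tmem167b (0.932) and Csrnp3 (0.921). These were the highest values of all genes compared, the Ptch1 pattern includes the difference between the groups, and they are given as a description.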

How the data were processed

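RNA was isolated with TRIzol and a stranded mRNA kit was used for the libraries, per the labels' protocols. The submitters' processing notes name HISAT2 2.2.1 and featureCounts 1.6.4 beside fastp, SAMtools, DESeq2 1.28.1 and Cufflinks 2.2.1, and build mm10, without role or order. The values deposited by the authors were whole-number read counts per gene symbol, not normalized. Annotation release and strand setting were not given in the sources used here.

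All 55228 rows entered the filter (edgeR filterByExpr, minimum count 10), which left 15798 genes. The test was that of edgeR 4.0.16 in R 4.3.3 (TMM, robust quasi-likelihood fit, genotype as the only term, all 7 libraries, Benjamini-Hochberg over all genes tested). SE values were derived from the F statistic. CPM per kb uses summed exon lengths from GENCODE M21, the same build. In the correction, each library's spline trend (4 degrees of freedom) of log2 CPM on length and GC content, estimated from genes with a mean above 1 CPM, was given to edgeR as offset; 98.6% of genes tested had both values. Other alternatives were median-of-ratios or total-count scaling, DESeq2 1.42.0, limma 3.58.1 voom with quality weights, no filter or 10 CPM in 3 libraries, the replicate number as a block, each library left out, KO library 1 alone, 1 surrogate variable (sva 3.50.0) and length alone. The correction with the longest transcript was chosen after seeing the data. The main edgeR fit and the length and GC correction were run on simulated counts. The simulated trend was built from the same summed exon lengths as the correction, so a wrong gene length could not show there. The other alternatives were not simulated.

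The members and lists were chosen with earlier results of these data known. Named were all members, up to 4 genes of smallest p and the gene of highest CPM of each role list, Fhl2, the 5 genes most correlated with Ptch1 and Gli1 (mean of at least 1 CPM, predicted genes left out), genes at 0 in every library, and per marker list up to 3 genes by level and 2 by p. Further untested or marker genes were picked out once their values were known. Whether the libraries came from separate animals is not in the labels, and p-values then reflect only the spread among these samples, which may be technical. No pair of libraries within a group was a duplicate (chi-square per degree of freedom at least 10.4), and pairs across the groups were not compared. Depth limits Hhip and Gli1 most.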

Additional observations from a re-analysis of the deposited data

Results flagged for a closer look

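In 2 cases 1 library lay far from the others of its group, by a gap larger than Dixon's 95% critical value. Dhh in WT library 3 was 9.07 CPM, against 12.9 to 13.2 CPM in the other WT libraries. Without that library the log2 fold change of Dhh was -0.23 (edgeR adjusted p = 0.197). Ptch1 in WT library 1 was 44.0 CPM, against 47.7 to 48.2 CPM in the other WT libraries, and above the 3 KO libraries. Chance gives such a gap in about 1 in 20 groups, and 39 groups were examined. The groups of 3 KO libraries were not examined in this way.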

How the results depend on the processing

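Of 137 values of the 7 tested Hedgehog genes under alternative settings, 119 kept their direction and side of the threshold, 3 lost the threshold (Ptch1 under the 3 corrections), 6 newly passed it (Gli2) and 9 changed sign. Ihh and Gli3 kept call and direction in each setting in which they were tested; both were removed by the filter of 10 CPM in 3 libraries, which left 1 member past the threshold (Ptch1). The sign changes concern values near 0: Dhh for KO library 1 alone (0.0652), Gli1 without WT library 3 (0.0876), without KO library 2 (0.0589), for KO library 1 alone (0.21) and with 1 surrogate variable (0.0942), and Smo in the same 4 settings (-9.80e-04, -0.00817, -0.0214 and -0.0141). Over the leave-one-out fits Gli1 ran from -0.26 to 0.0876 and Smo from -0.00817 to 0.0526. In other named genes, signs changed for Csnk1a1 (0.22 corrected, 0.20 by length alone, 0.0203 with the longest transcript), Arl3 (-0.0309 by length alone, -0.0799 with the longest transcript), Cdk6 (0.0442 with the longest transcript), Disp1 (0.0661 for KO library 1 alone) and Scube1 (-0.10 without KO library 1, and up to 0.32 with another library left out). Gli2 passed with no filter (-0.74), voom (-0.93), 1 surrogate variable (-0.41), the corrected fit (-0.66) and without KO library 1 (-1.13); the cause was not tested.

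With the replicate block on 6 libraries, Gli2 was at -0.89 (edgeR adjusted p = 7.72e-06), and 1228 genes were higher in KO, against 1271 in the same 6 libraries without it and 2128 in all 7. The replicate numbers gave no sign of pairing the samples, since same-numbered libraries deviated from their group means with correlations of -0.0496 to 0.0449. The count of genes higher in KO was 277 for KO library 1 alone, a setting with fewer samples, 1232 with 1 surrogate variable and 662 to 3331 with each library left out; the count lower was 504, 1630 by length alone and 995 to 3409. Other pathway genes past the threshold numbered 14 in the 6 libraries, 7 for KO library 1 alone, 15 with the longest transcript and 9 to 27 with each library left out. Scaling by library totals gave 2630 genes higher and 2129 lower, against 2128 and 2460. For the corrections the cause of the changed counts was not tested.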
